A study of Cricetiscus sungorus with 16 samples.

Results

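In the ovaries of Siberian hamsters a set of transcripts rose from 3 to 8 wk under long and under short days, and ended less than 2-fold apart. They number 91 of the 20143 transcript identifiers that could be tested (0.452%). A member had to rise by at least 1 on the log2 scale (2-fold) in long days and in short days, with every 8-wk array above every 3-wk array in each, and its 8-wk means in short and long days had to lie less than 1 apart. The values that chose the members are therefore their age changes and their 8-wk difference. These are given as a description, without a test. The difference between day lengths at 3 wk follows from the same values, as the 8-wk difference minus the difference of the rises, so for the members it is a description too.

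Gestation and rearing took place under 16 h of light a day (long days, LD) or 10 h (short days, SD), and both ovaries of each female were taken at 3 or 8 wk. Each of the 4 groups, LD at 3 wk, LD at 8 wk, SD at 3 wk and SD at 8 wk, held 4 arrays with RNA from 1 hamster each, 16 in all, and each title has its own animal code. For the SD arrays at 8 wk the titles and descriptions both name SD. The titles and treatment fields give 16 h of light, however, and the descriptions 10 h. These arrays were taken as SD with 10 h, and every SD value at 8 wk rests on that reading. The labels name no genetic change or drug in any group.

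The Siberian hamster breeds seasonally, and the length of the day, read through the nightly melatonin signal, sets the pace of its reproductive maturation. In long days the ovary of a young female moves from early follicle growth to large follicles and ovulation. In short days puberty is put off. RNA came from whole ovaries, so more cells of a type and more RNA per cell cannot be told apart.

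The probes are those of a mouse array. How well each one binds its hamster counterpart, or another hamster RNA, was not tested. Identifiers are given without gene symbols, and no table used here pairs them. For that reason 2 members are named, by identifier, and the others are described by counts and ranges. Lists of genes, and the markers that would check the tissue as ovary, could not be matched either. Of the 91 identifiers, 73 (80.2%) carried the prefix NM_ of curated RefSeq messenger RNAs, against 68.1% of all tested. A further 9 (9.89%) began with AK, the prefix of full-length mouse complementary DNAs, against 14.8% of all. No sequence is shown, because the files used here hold none.

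Signal well above background was seen for 58.0% to 75.7% of the probes of an array. The array's 75th percentile of intensity was lowest on slide 1 (320 to 487) and reached 1055 elsewhere. The arrays lay on 4 slides scanned on 3 days, and each slide held 1 array of every group. Deviations from group means were shared by arrays of a slide: over 24 pairs of arrays their correlation had a median of 0.451 across transcripts (0.224 to 0.727), and of 0.231 (−0.219 to 0.594) across 86 members. Each group sat at 1 place on all slides, so effects of place and of group cannot be told apart.

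Levels below are log2 intensities minus the 75th percentile of the same array, so a rise of 1 is a 2-fold rise in probe signal relative to that percentile. A probe's level is set only against itself. In LD, 189 identifiers (0.938% of those tested) rose by at least 1 without overlap of the arrays. In SD, 502 did (2.49%). The lists shared 109, which is 57.7% of the LD list and 21.7% of the SD list. The rule's bound at 8 wk removed 18 of these, and in all 18 the SD mean was the higher by at least 1. The other 91 are the members. Turned to falls, the same rule took 223 identifiers (1.11%).

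**Figure D1:**
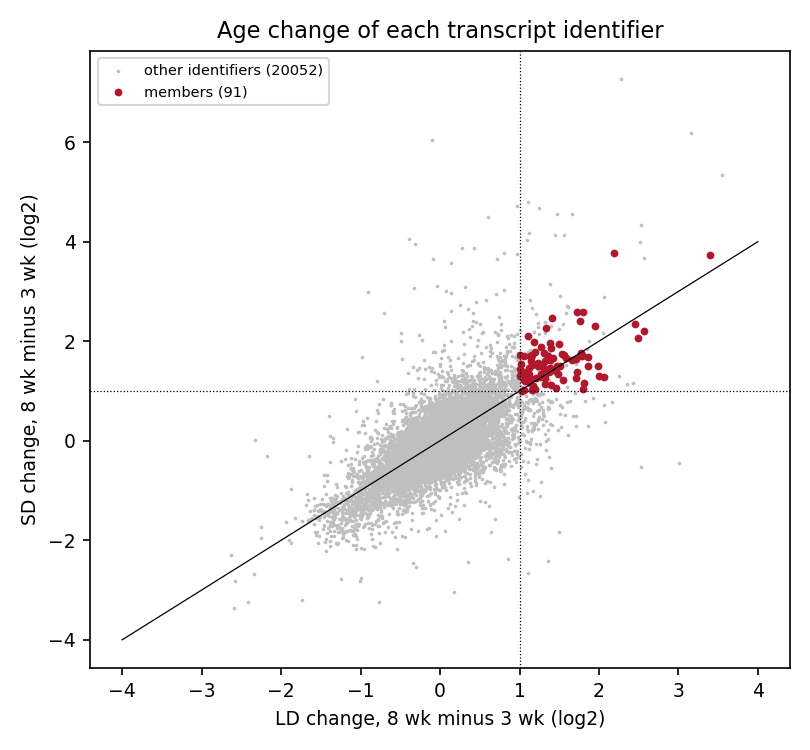
Change from 3 to 8 wk in LD (horizontal axis) and SD (vertical axis), in log2 units, for each of 20143 identifiers. Red points are the 91 members, grey points the others, dotted lines mark a rise of 1 and the solid line equal changes. Members lie from 1.0 to 3.39 in LD and from 1.01 to 3.77 in SD, with 60 of 91 above the line of equal change.

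The member with the largest rise, taken as the smaller of its LD and SD rises, was AK009938. In LD at 3 wk its level stood at −4.56, −2.09, −2.12 and −3.36 on slides 1 to 4. In LD at 8 wk it stood at 0.03, 0.98, −0.97 and 1.40. The lowest 8-wk array lay 1.12 above the highest 3-wk array. In SD it stood at −3.95, −5.52, −2.64 and −1.37 at 3 wk and at −0.86, −0.20, 1.16 and 1.34 at 8 wk. Here the gap between the ages was 0.51, set by slide 1 at 8 wk and slide 4 at 3 wk. At 3 wk the LD arrays averaged −3.03 ± 1.18 and the SD arrays −3.37 ± 1.78, and at 8 wk 0.36 ± 1.05 and 0.36 ± 1.07 (SD, n = 4). The rise was thus 3.39 in LD and 3.74 in SD, a 10.498-fold and a 13.3-fold rise. Within slides it ran from 1.16 to 4.75 in LD and from 2.71 to 5.33 in SD, each value being the difference between 2 hamsters on 2 arrays.

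The second was NM_028417. Its level in LD at 3 wk was −2.11, −0.44, −0.85 and −1.11 on slides 1 to 4, and at 8 wk 2.07, 1.75, 0.33 and 1.15. In SD it was −0.60, −2.35, −1.08 and −0.10 at 3 wk, and 2.04, 1.04, 0.39 and 1.79 at 8 wk. All 8 arrays at 8 wk were above all 8 at 3 wk, by at least 0.42. At 3 wk the LD arrays averaged −1.13 ± 0.71 and the SD arrays −1.03 ± 0.97, and at 8 wk 1.32 ± 0.77 and 1.31 ± 0.75 (SD, n = 4). The rise was 2.45 in LD (5.46-fold) and 2.35 in SD (5.09-fold). Slide 3 gave the lowest 8-wk level under both day lengths, and slide 3 also gave the smallest rises, of 1.18 in LD and 1.47 in SD. Both named transcripts were flagged well above background on every array. Even so, AK009938 was dim on some 3-wk arrays. Its levels of −5.52 (SD, slide 2) and −4.56 (LD, slide 1) compare with lowest flagged levels of −5.84 and −5.21 on those arrays. Its fold rises rest in part on such dim signals.

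**Figure D2:**
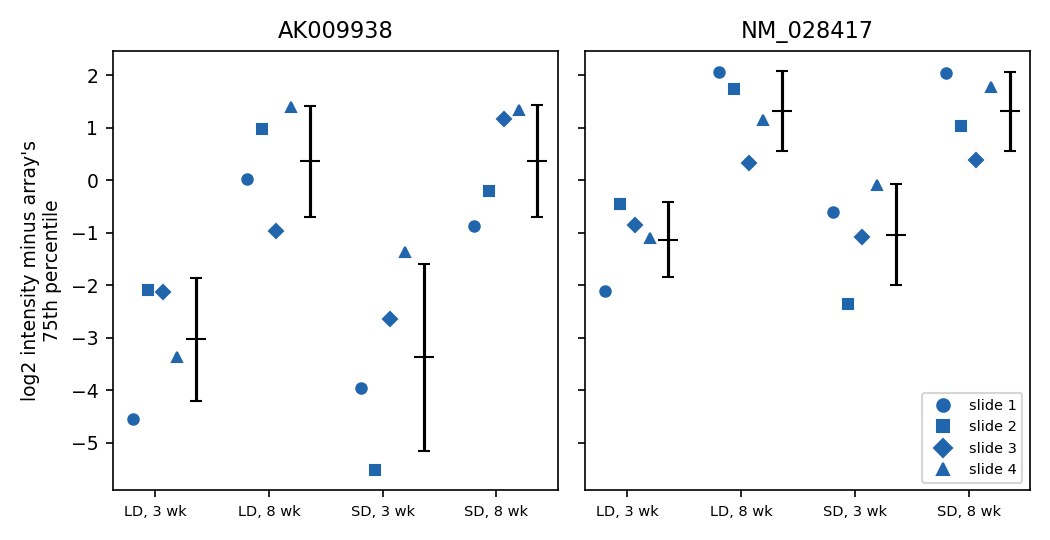
Level of AK009938 (left) and NM_028417 (right) on each array, as log2 intensity minus the array's 75th percentile (vertical axis), by group (horizontal axis). Symbols mark the slide, and bars are the mean ± SD of 4 arrays. For AK009938 the 3-wk arrays run from −5.52 to −1.37 and the 8-wk arrays from −0.97 to 1.40.

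Ranked by the smaller of their rises, the other members follow, though some of them rose more than AK009938 or NM_028417 in 1 day length. The LD rise over all 91 had a median of 1.34 (2.53-fold), with the middle of the members between 1.14 and 1.68, and the SD rise a median of 1.51 (2.84-fold), with the middle between 1.29 and 1.72. Over all identifiers tested the medians were −0.01 and 0.02. The smaller of the rises was at least 1.5 for 21 members, at least 2 for 5 and at least 3 for 1. Close to the threshold, 21 of the 91 had a smaller rise between 1 and 1.1. Just inside were rises of 1.00045, 1.007 and 1.007, and just outside, for transcripts that met the other conditions, 0.998, 0.995 and 0.993. Between 0.9 and 1 there were 36 such transcripts. Against the bound at 8 wk, the members closest to it differed by 0.96, 0.93 and 0.91, and the closest transcripts past it by 1.01, 1.03 and 1.04.

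The gap between the lowest 8-wk and the highest 3-wk array, which the rule requires to be above 0, had a median of 0.53 in LD (0.04 to 1.44) and 0.69 in SD (0.11 to 2.32). It was at least 1 for 8 members in LD, 25 in SD and 2 in both. With the day lengths put together, all 8 arrays at 8 wk lay above all 8 at 3 wk for 74 members, and for 1 of them by at least 1. In the other 17 at least 1 array at 8 wk overlapped a 3-wk array of the other day length. The rule asks for this separation within each day length and bounds the 8-wk means, so the count follows in part from the choice. The share over all identifiers is not given here, so the count only describes the set.

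The label of these transcripts says that they rise alike, although the rule bounds only the 8-wk means. The SD rise was within 0.5 of the LD rise for 70 members, and 18 differed by 0.5 to 1. The SD rise minus the LD rise had quartiles of −0.06 and 0.36 over members, and −0.15 and 0.19 over all identifiers. By these quartiles the changes under the day lengths were no closer in members than in identifiers at large. Of the 91, 60 (65.9%) rose more in SD and 31 more in LD, and over all identifiers the change was more positive in SD for 55.4%. In 3 members the rises were at least 1 apart, and all 3 rose more in SD, while 0 rose more in LD by that much. Over all identifiers the change was more positive by at least 1 in SD for 1.13% and in LD for 1.14%. The first rose by 2.19 in LD and 3.77 in SD, from 3-wk means of −1.59 ± 0.64 (LD) and −2.65 ± 0.48 (SD) to 8-wk means of 0.60 ± 0.67 and 1.12 ± 0.67 (SD, n = 4). The second rose by 1.41 and 2.46 and the third by 1.11 and 2.11. These differences use the contrasts of the rule and were not tested. Leaving out 1 array changed their number most for 3 arrays at 8 wk: it was 1 without the LD array of slide 2, 1 without the SD array of slide 1, and 5 without the LD array of slide 1. With slide 2, 3 or 4 left out whole it was 5.

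The members' levels on single arrays were summarised as follows. For each array the members' levels were centred on each member's own mean of the 4 group means, and the median was taken over members. At 3 wk the LD arrays of slides 1 to 4 gave −1.05, −0.43, −0.60 and −0.85, and the SD arrays −0.76, −1.03, −0.50 and −0.46. At 8 wk the LD arrays gave 0.57, 0.58, 0.63 and 0.62, and the SD arrays 0.93, 0.87, 0.60 and 0.91. The same median over all identifiers stayed between −0.08 and 0.08. The rule sets the 3-wk and 8-wk arrays apart, so what these values add is their spread within a group. The SD of this median over 4 arrays was 0.03 for LD and 0.16 for SD at 8 wk, against 0.27 and 0.26 at 3 wk. Single members showed a spread of the same order at both ages: the median SD of a member over 4 arrays at 3 wk was 0.37 (LD) and 0.41 (SD), and at 8 wk 0.37 and 0.36. Over all identifiers it was 0.27, 0.27, 0.34 and 0.29.

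**Figure D3:**
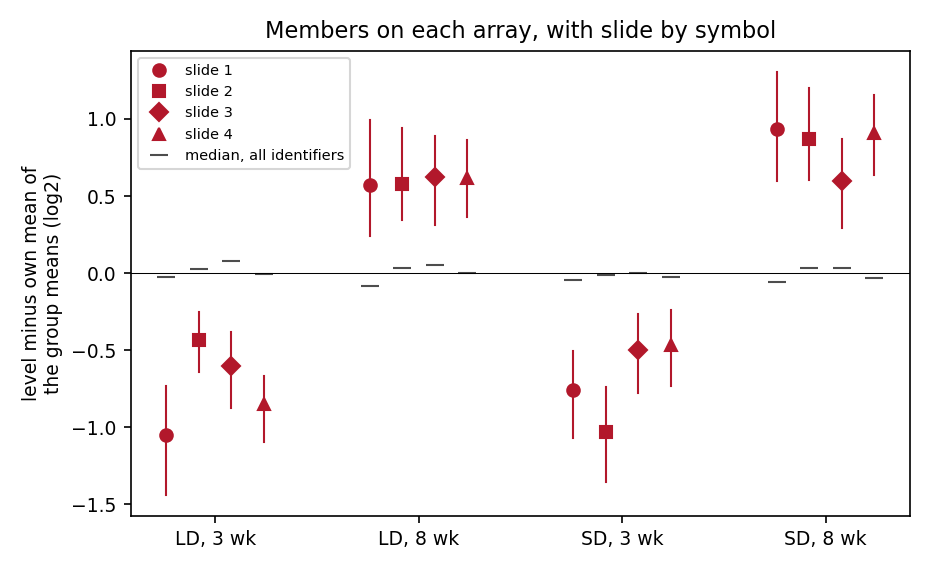
Median over the 91 members of the level centred on the member's own mean (vertical axis, log2) on each of 16 arrays, by group (horizontal axis) with the slide as symbol. Vertical lines run from the lower to the upper quartile of members and grey dashes give the median over all identifiers. The 3-wk arrays lie between −1.05 and −0.43 and the 8-wk arrays between 0.57 and 0.93, a separation that the rule requires of each member.

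The deviations of arrays from their group means were not used to choose the members, apart from the condition on overlap. With group and slide means removed, pairs of members correlated over the 16 arrays with a median of 0.362 (quartiles 0.083 and 0.590), over 3655 pairs of the 86 members measured on every array. For pairs of all 18647 identifiers so measured the median was 0.017 (quartiles −0.285 and 0.316). A correlation of at least 0.5 was found in 35.5% of member pairs and 12.6% of all pairs, and one of −0.5 or lower in 1.07% and 11.2%. All pairs share the same hamsters, arrays and scaling. The members thus tended to be high on the same arrays of a group.

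Within slides, each of which gives 1 array per group, the members' median LD rise was 1.64, 1.08, 1.19 and 1.41 on slides 1 to 4, and the median SD rise 1.68, 1.90, 1.1 and 1.43. Since the rule's condition on overlap makes each of these positive, their sizes alone add anything. Slides 2 and 3 gave the smallest LD rises, with 41 and 31 of 91 members under 1, and slide 3 the smallest SD rise, with 40 under 1. On slide 2 only 1 member had an SD rise under 1.

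To see the age change on arrays that had not chosen the transcripts, the rule was applied to 3 slides and the change was read on the fourth. Leaving out slides 1, 2, 3 and 4 in turn, the rule took 109, 113, 123 and 100 transcripts, of which 72, 80, 78 and 74 were among the 91 members. On the slide left out, their median LD change was 1.33, 0.91, 0.95 and 1.37 and their median SD change 1.57, 1.88, 0.96 and 1.43. Of the chosen transcripts, 102, 113, 122 and 98 were measured there, and the others drop out of the shares. Both changes were above 0 for 87.3%, 93.8%, 89.3% and 98.0% of those measured there, against 25.5%, 37.3%, 32.9% and 34.1% of all identifiers. Both were at least 1 for 52.9%, 41.6%, 27.0% and 59.2%, against 1.44%, 0.721%, 1.08% and 0.785%. The medians were above 0 on all 4 slides, and under 1 on slide 2 in LD and on slide 3 in both. Each slide gives 1 array per group, so these are values without a test.

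**Figure D4:**
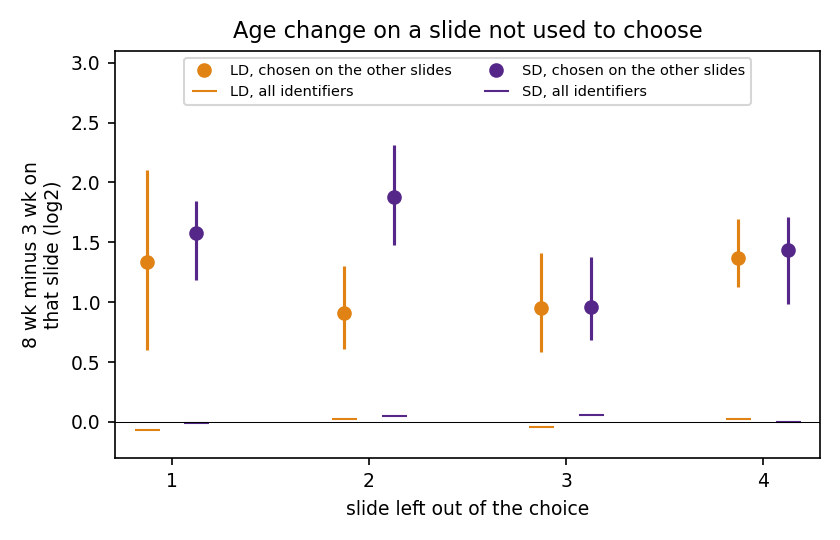
Change from 3 to 8 wk (vertical axis, log2) on a slide that was left out when the rule was applied (horizontal axis), in LD and SD. Points are medians over the transcripts chosen on the other 3 slides, lines run between quartiles, and dashes are the medians over all identifiers. The points lie from 0.91 to 1.88 and the dashes from −0.07 to 0.06.

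A second measure on the same arrays comes from other probes of the same identifiers. Of the members, 20 had 24 other probes past the filter, all dimmer than the probe used. Of these, 19 (79.2%) were higher at 8 wk in both day lengths and 2 were lower in both, and 8 (33.3%) rose by at least 1 in both. The medians were 0.76 in LD and 0.88 in SD. Of 4474 other probes of all identifiers, 33.5% were higher in both and 0.715% rose by at least 1 in both. These probes share the arrays and the contrast with the rule, so this is a description. Neither AK009938 nor NM_028417 had another probe past the filter.

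Of the 91 members, 83 were flagged well above background on all 16 arrays, a flag that does not place each signal far above it. The other 8 fell short on at least 1 array at 3 wk, though none on all 4 arrays of a 3-wk group. Those 3-wk signals of these 8 that lay under the lowest signal well above background on their array were raised to it. The rises were then 0.81 to 2.27 (log2), against 1.12 to 2.29 as measured. Some signals not well above background lay over that lowest signal and were left as measured, so these values are not lower bounds throughout. At 8 wk all 91 were well above background on every SD array and 89 on every LD array. Of 1456 member values, 5 were left out as outlier spots, in 5 members, 4 of them on slide 1. A background correction, normexp, started from raw median spot signals and added an offset of 50, steps that were not tested apart. This correction cut the number of members to 4, 3 of them among the 91. Under it all 91 kept a rise above 0 in both day lengths, and 28 kept one of at least 1 in both. It moved the median SD change of all identifiers from 0.02 to 0.17, and that in LD from −0.01 to 0.05. The members' median rises were then 0.92 in LD and 1.08 in SD, and AK009938 rose by 2.09 and 2.17.

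At 3 wk SD was compared with LD by limma across all identifiers. None of the 20143 (0%) passed an adjusted p of 0.05, either as fitted or with the slide in the model. Before adjustment, 369 (1.83%) had a p under 0.05, and 1250 (6.21%) with the slide in the model. With array weights 2 identifiers passed. The members were chosen on values that fix their 3-wk difference, so no test is given for them and their 3-wk values are described.

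The members' 3-wk differences (SD minus LD) had a median of 0.09, with quartiles of −0.14 and 0.31, and ran from −1.07 to 0.93. A difference of at least 1 was seen in 1 member, lower in SD (0.233% of all identifiers), and in 0 members higher in SD (0.303%). The median over all identifiers was −0.04. Of the 91, 54 (59.3%) were higher in SD, against 40.2% of all identifiers. The median moved between −0.054 and 0.297 when single slides were left out, so it has no settled sign. AK009938 differed by −0.34 (SE 0.81 in the limma fit) and NM_028417 by 0.09 (SE 0.50). In 1 member the 4 SD arrays lay below the 4 LD arrays at 3 wk, against 1.23% of all identifiers, and in 0 they lay above, against 0.67%. Its 3-wk means were −2.05 ± 0.36 (LD) and −2.94 ± 0.19 (SD), and its 8-wk means −0.54 ± 0.75 and −1.43 ± 0.36 (SD, n = 4). It rose by 1.513 in LD and 1.504 in SD, and so kept a difference of about the same size, −0.88 at 3 wk and −0.89 at 8 wk.

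**Figure D5:**
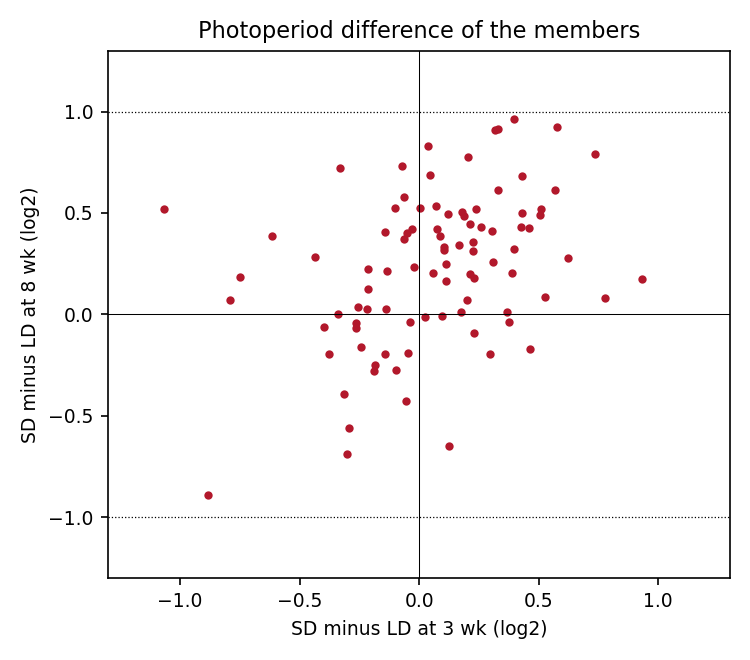
Difference between day lengths, SD minus LD in log2 units, at 3 wk (horizontal axis) and 8 wk (vertical axis) for each of the 91 members. Dotted lines mark the bound of 1 that the rule sets at 8 wk. The 47 members in the upper right were higher in SD at both ages, and the 21 in the upper left were lower in SD at 3 wk and higher at 8 wk.

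At 8 wk the rule holds the difference within 1, and inside that bound the members leaned towards SD. The median difference was 0.26, 65 members were within 0.5, and 68 (74.7%) were higher in SD, against 47.6% of all identifiers. In 10 members (11%) the 4 SD arrays at 8 wk lay above the 4 LD arrays, against 2.25% of all identifiers, and in 0 they lay below, against 2.04%. In these 10 the SD mean was higher by 0.50 to 0.91. Of the 68 members higher in SD at 8 wk, 47 were also higher at 3 wk and 21 lower. Of the 23 lower in SD at 8 wk, 16 were also lower at 3 wk. The members' levels at 8 wk were chosen to be close, so these counts describe the set and are no test of day length.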

How the data were processed

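Per the labels' protocols, ovarian total RNA of each female was labelled with Cy3 and hybridised to a 1-colour Agilent mouse array. Per the file headers, the authors extracted spots with Agilent Feature Extraction 10.5.1.1. The deposited scanner files give a background-corrected processed intensity per spot, linear and not normalized between arrays, with flags for outliers and for signal well above background. A value table deposited by the authors repeats these intensities, rounded (4 of 720288 cells off by over 0.5%) and was an alternative. The labels give no replicate numbers; those used here are in accession order and match slides 1 to 4.

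Of 41174 probes (43379 spots, 0 saturated), 24998 (60.7%) passed the filter, which asked for signal well above background throughout 1 group or more. Outlier spots were left out, spots averaged, log2 intensities centred on the array's 75th percentile, and probes measured on at least 12 arrays, 2 per group and 2 per slide, were kept. The brightest stood for each identifier. For the 3-wk contrast limma 3.58.1 (R 4.3.3, lmFit, then eBayes with trend) was fitted over all 16 arrays without the slide. Benjamini-Hochberg adjustment ran over 20143 identifiers, at a threshold of 0.05. Python 3.11.15 did the rest. The number of arrays limits precision.

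The members and lists were chosen with earlier results of these data known. The rule for named transcripts took the 2 largest smaller rises, since no symbols could be matched. Alternatives covered normalization, background correction, filters, probes, the value table, slide, each array and each slide.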

Additional observations from a re-analysis of the deposited data

How the results depend on the processing

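The number of members was 91, and 84 to 120 when single arrays were left out (71 to 91 shared with the 91). It was 100 to 123 when single slides were left out (72 to 80 shared). The condition on overlap is easier to meet with fewer arrays, so like totals do not mean the same members. With slide means removed, a replicate block for this rule, the number was 109, with 90 shared. It was 271 with a rise of at least 1.5-fold, 5 with 4-fold, and 4 with normexp. Chosen after seeing that count, normexp with quantile normalization gave 37 and normexp with slide means removed 6. Median rises were 0.92 in LD and 1.08 in SD with normexp, also with slide means removed, and 0.99 and 1.05 with quantile normalization after it. Without normexp the LD and SD medians stayed within 1 SD of the slides' values. The cause of the normexp difference was not tested. Rises at least 1 apart numbered 3, 1 under each of the normexp settings, 1 to 5 without single arrays, and 5 without slide 2, 3 or 4. The 3-wk median difference of 0.09 was −0.054 with normexp, −0.069 with slide means removed as well, −0.014 to 0.19 without single arrays (below 0 without LD 3-wk replicate 1), −0.0087 without slide 1 and −0.054 without slide 4. Between rises and falls of at least 1 in both day lengths, 34.9% were rises, and 46.2% with normexp and quantile normalization. At 3 wk each of 27 alternative limma fits, with slide as a block among them, called at most 2 of all identifiers. The choice of members bears on that contrast, so no count is given for them. Dim 3-wk signals of 8 members limit their rises.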

Other observations

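The transcripts that the same rule takes when turned to falls gave values on single arrays that mirrored the members'. Centred in the same way, the median over these 223 was 1.09, 0.37, 0.43 and 0.73 in LD at 3 wk on slides 1 to 4, where the members' median was −1.05, −0.43, −0.60 and −0.85. In SD at 3 wk it was 0.82, 0.97, 0.60 and 0.48, beside −0.76, −1.03, −0.50 and −0.46. In LD at 8 wk it was −0.50, −0.52, −0.76 and −0.72, beside 0.57, 0.58, 0.63 and 0.62. In these 3 groups the array order of the falling set was the members' order reversed. In SD at 8 wk it was −0.80, −0.67, −0.62 and −0.84, beside 0.93, 0.87, 0.60 and 0.91, where slides 1 and 4 broke the reversal. The rule bears on differences between ages and not on this order within a group. Both sets share the arrays and their scaling, and the median over all identifiers stayed between −0.08 and 0.08 on every array.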
